A study of Canis lupus familiaris with 8 samples.

Results

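MiR-31 was followed through every spot that carries it on a canine microRNA array. It is 1 of the 454 miRNAs of the array and was taken by its name there, cfa-miR-31, which 3 probes and 40 spots per array carry. It was chosen by its signal in these same data, which earlier work found high in the sorted cells of the drug-resistant line, so its level in those cells and their contrasts with the other groups are described here without a test.

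MicroRNAs are short RNAs that pair through their seed with messenger RNAs and lower the output of those transcripts. In human breast cancer models miR-31 is known for holding back invasion and metastasis, through targets that include the integrin subunit ITGA5, the cytoskeletal linker RDX and the small GTPase RHOA. In the mouse mammary gland it has been linked to the expansion of mammary stem cells, and in several other human cancers it is raised, so its role depends on the tissue.

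The samples come from CMT-Stylo (Stylo), a canine mammary adenocarcinoma line, and from CMT-Star (Star), a line raised from Stylo by growing it in increasing doxorubicin, a DNA-intercalating drug, up to 100 nM. Cancer stem cells, called CSC as in the labels, were sorted from each line as cells with CD44 and aldehyde dehydrogenase activity and with little or no CD24. The 4 groups are the untreated line (Stylo parent), its sorted cells (Stylo CSC), the resistant line (Star parent) and its sorted cells (Star CSC), each with 2 samples, and the labels call both Star groups doxorubicin treated. Star is 1 resistant line, and nothing in the labels says that replicates came from separate cultures or sorts, so the spread between them may be technical.

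The scanner files of the 2 Stylo parent samples were identical and were counted as 1, which leaves 7 distinct arrays. Between 24 and 49 miRNAs were well above background on an array, a flag the scanner software sets for each spot and which a probe carries here when over 50% of its spots do. None of the 8 epithelial markers, among them the miR-200 family, was well above background on any array (0 of 8), nor were the mesenchymal (0 of 4 on the array) and endothelial ones (0 of 1). Of the 6 haematopoietic markers, miR-155 and miR-223 were, on the Stylo parent array alone. Stylo CSC replicate 1 was the 1 array on slide 2. All Star arrays lay in row 2 of the array positions and all Stylo arrays in row 1, so line and row cannot be told apart.

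The signal of miR-31 rested on 1 of its 3 probes. The RNA came from bulk cells, where fewer cells that make miR-31 and less of it per cell cannot be told apart. On probe A_38_P00002122 the mean background-subtracted intensity was 74.3 ± 6.31 (SD over 11 spots) in Star CSC replicate 1 and 57.1 ± 10.2 (SD over 11 spots) in replicate 2. The same probe gave 12.3 ± 5.44 and 10.5 ± 2.91 in the 2 Star parent arrays, 8.38 ± 4.06 and 12.5 ± 4.12 in the 2 Stylo CSC arrays, and 6.34 ± 3.97 in the Stylo parent array. The Star CSC arrays therefore lay above all others on this probe, and their spots did not overlap with those of the other arrays. The dimmest of the 22 Star CSC spots used read 39.5 and the brightest of the 63 spots on the 5 other arrays read 21.3. Spots of 1 array are repeat measurements of 1 sample, so these SDs describe the precision of an array and not the spread between samples.

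Probe A_38_P00002122 was well above background on 11 of 11 spots of each Star CSC array and on 0 of 63 spots elsewhere. It was not empty in the other groups, since the scanner software called 59 of those 63 spots positive and significant against the background. The negative-control spots of the 7 arrays had means of 1.35 to 3.18 with SDs of 3.53 to 4.74. Against the controls of its own array the probe stood 19.1 and 11.8 control SDs higher in Star CSC, and 0.805 to 2.98 control SDs higher on the 5 other arrays. The lowest of these was the Stylo parent array.

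**Figure D1:**
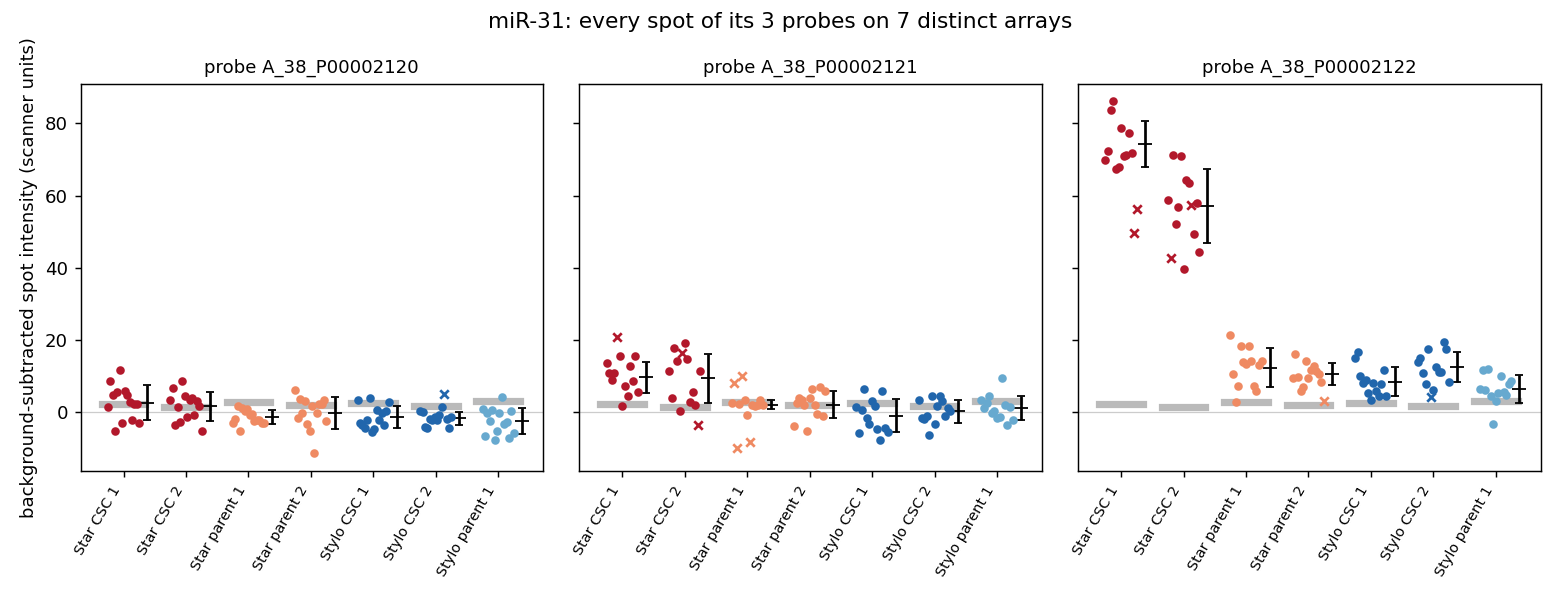
Background-subtracted intensity of every miR-31 spot (vertical axis, linear scanner units) on the 7 distinct arrays, with 1 panel for each probe. Dots are spots used, crosses are spots left out as outliers, black bars are the mean and SD over used spots, and grey bars are the mean of the array's negative controls; on the right the Star CSC spots lie at 39.5 and above and all other spots at 21.3 and below.

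The other 2 probes carried little of the signal. Probe A_38_P00002121 read 9.58 and 9.34 in Star CSC, 2.00 and 1.99 in Star parent, −1.08 and 0.205 in Stylo CSC, and 1.17 in Stylo parent. Its array means were again highest in Star CSC, where 18 of 23 spots were positive and significant against 9 of 61 elsewhere, but no spot was well above background. Probe A_38_P00002120 read 2.59 and 1.57 in Star CSC, within 0.081 control SDs of the negative controls, and between −2.53 and −0.176 on the other arrays. All 3 probes had their highest array means in Star CSC, but those of A_38_P00002120 were at the level of the negative controls. The level itself came from A_38_P00002122. Reliance on 1 of several probes is common here: it held for 23 of the 49 miRNAs well above background in Star CSC replicate 1 and for 23 of 43 in replicate 2.

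Before any scaling the 3 probes summed to 86.5 and 68.0 in Star CSC, 12.8 and 12.3 in Star parent, 5.94 and 10.97 in Stylo CSC, and 4.97 in Stylo parent. The arrays also differed in brightness. The 75th percentile over the 22 probes well above background on every array, by which each array was divided, was 500.4 and 452 in Star CSC, 333 and 316 in Star parent, 212 and 307 in Stylo CSC, and 219 in Stylo parent. The Star CSC arrays were thus the brightest, with the most miRNAs well above background (49 and 43), so ratios are given with and without the division.

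After scaling, the level of miR-31 on the log2 scale was −2.53 and −2.73 in Star CSC, −4.70 and −4.68 in Star parent, −5.15 and −4.81 in Stylo CSC, and −5.46 in Stylo parent. The 2 Star CSC arrays lay above the lowest signal that counted as well above background on them (−4.33 and −3.83). The 5 others lay below theirs, which ran from −3.80 to −2.87 with Stylo CSC replicate 1 the highest. On every array outside Star CSC the level is therefore only a bound, and a common floor of −3.61 was set for comparisons.

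**Figure D2:**
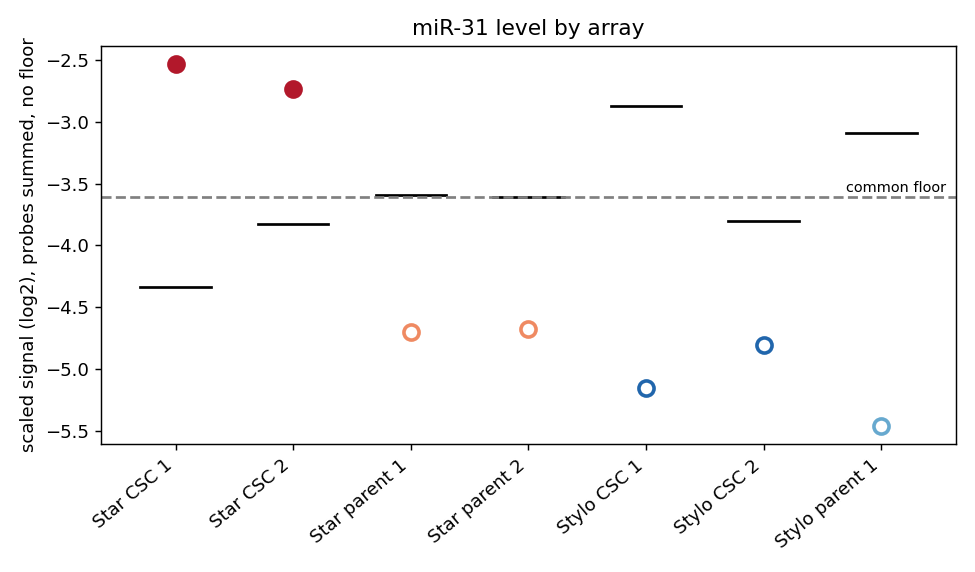
Scaled log2 signal of miR-31, its probes summed and with no floor, on each of the 7 distinct arrays (vertical axis). Filled circles are well above background, open circles are not, short black lines are the lowest signal well above background on that array and the dashed line is the common floor; the Star CSC arrays sit at −2.53 and −2.73 and the others between −5.46 and −4.68.

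The order of the groups had Star CSC first at −2.63 ± 0.14 (SD, n = 2). Below it the means without a floor were −4.69 ± 0.02 (n = 2) in Star parent, −4.98 ± 0.25 (n = 2) in Stylo CSC and −5.46 (n = 1) in Stylo parent. These 3 groups have no settled order. On probe A_38_P00002122 alone Stylo CSC (−4.64 ± 0.03) came before Star parent (−4.83 ± 0.10) and Stylo parent (−5.11). With each array scaled over all probes, the same probe stood higher in Stylo parent than in Stylo CSC and Star parent (log2 differences of −0.046 and −0.19 to Stylo parent).

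Star CSC and Star parent were compared to ask how sorting sets cells of the resistant line apart. With the common floor miR-31 was higher in Star CSC by 0.97 ± 0.10 on the log2 scale (limma's SE, n = 2 and 2), where Star parent stands at the floor. Both Star parent arrays were set to that floor, so the SE carries no spread of miR-31 between them. Taken as a bound it was at least 1.95-fold higher after scaling. Among the settings for which it was worked out, the bound ran from 1.86-fold on slide 1 alone to 4.04-fold with totals recovered from the deposited values. These leave out the mean of the log2 probe signals and normexp, described below, where the difference itself was smaller or turned negative. Without scaling it was 2.87-fold. No exact fold is given, because no spot of miR-31 was well above background in Star parent. MiR-31 was chosen for its level in Star CSC, so its own pass by limma is not counted as a result. It was the 1 of the 46 miRNAs tested that passed in this contrast (2.17%). That count rested on the spread between the 2 Stylo CSC arrays, which all contrasts share: without Stylo CSC replicate 1, the array of slide 2, 26 of 50 passed (52%), without replicate 2 31 of 47 (66%), and with slide as a block 31 of 46 (67.4%).

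The sorted cells of both lines were set against each other to ask whether Star CSC differ from the CSC of the sensitive line. MiR-31 was at least 1.63-fold higher in Star CSC. The floored difference was again 0.97, since both dim groups stand at the floor, and the 2 contrasts share the Star CSC arrays. The bound was 2.24-fold on slide 1 alone, which leaves out Stylo CSC replicate 1, and 3.05-fold without scaling. It fell to 1.48-fold with totals recovered from the deposited values. Here 3 of the 46 tested miRNAs passed (6.52%), against 23 of 50 (46%) without Stylo CSC replicate 1, 36 of 47 (76.6%) without replicate 2 and 26 of 46 (56.5%) with slide as a block. The 3 that passed as reported include miR-31, whose pass is again not counted as a result. Against Stylo parent, miR-31 in Star CSC was at least 1.37-fold higher, and at least 2.98-fold without scaling. With outlier flags kept that bound was lower, at 1.32-fold.

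Nothing can be said of miR-31 between the 3 dim groups. Every array of Stylo CSC, Star parent and Stylo parent lies at the common floor, so the difference of 0 from Stylo parent that the fit gives for both is set by the floor, and its test is void. No fold is given because no array of these groups was well above background.

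The deposited value table shows another picture of miR-31 until its construction is taken into account. Its log2 values were 2.97 and 2.89 in Star CSC, −3.17 and −3.30 in Star parent, 2.96 and −3.20 in Stylo CSC, and −2.89 and 2.96 in Stylo parent. Read as given, 1 Stylo CSC and 1 Stylo parent sample stand as high as Star CSC. The entry named Blank, undetected in every sample, differs between columns by the shift of each array alone, and it was 6.15 in exactly those 2 columns and between −0.94 and 0.29 in the 6 others. With that shift removed, miR-31 was 3.91 and 3.53 in Star CSC and −3.19 in all 6 other columns.

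The value of −3.19 stands for a total of 0.1, which the scanner software writes where it detects no miRNA. The scanner totals of miR-31 were 13.7 and 10.5 in Star CSC and 0.1, undetected, in the 6 other files. The log2 differences of 7.09 and 6.71 between these totals and 0.1 measure that placeholder and not a fold. The 2 shifted columns, Stylo CSC replicate 1 and Stylo parent replicate 2, also matched their scanner files in only 409 and 406 of 454 entries, against 454 in the others, within 0.01 on the log2 scale. MiR-31 was undetected for these samples in both sources.

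**Figure D3:**
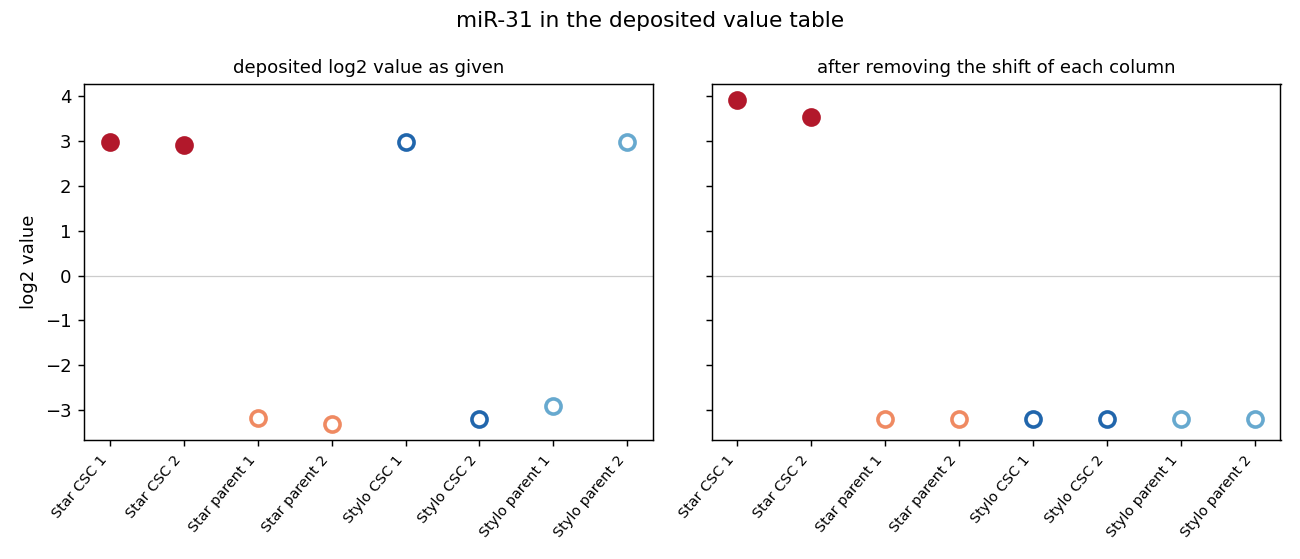
Log2 value of miR-31 for the 8 samples in the deposited table (vertical axis), as given on the left and with the shift of each column removed on the right; filled circles are detected and open circles undetected. On the left 2 undetected samples stand at 2.96 beside Star CSC at 2.97 and 2.89, and on the right all 6 undetected samples lie at −3.19.

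Few other miRNAs shared the detection pattern. MiR-31 and miR-107, which regulates insulin sensitivity in mouse and is nearly identical in sequence to miR-103, were well above background on both Star CSC arrays and on no other (2 of 454, 0.441%). MiR-107 was near its limit, at −3.66 and −3.66 in Star CSC and −5.09 to −4.13 elsewhere without a floor, and with a sequence so near to that of miR-103 its own level is uncertain. Between Star CSC and Star parent alone the pattern held for 5 miRNAs (1.1%), named after their values were seen: miR-31, miR-107, miR-188, and miR-25 and miR-92a, which share a seed. Between Star CSC and Stylo CSC it held for 4 (0.881%), namely miR-31, miR-107, miR-320 and miR-874.

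The 5 tested miRNAs whose level followed miR-31 most closely over the 7 arrays were miR-103, which targets Dicer (Pearson r = 0.88), let-7g (r = 0.85), miR-874 (r = 0.76), let-7f (r = 0.75) and let-7c (r = 0.74). The median r over the 45 other tested miRNAs was −0.02. These values describe 7 arrays of 4 groups that share their scaling, and miR-31 is at the floor on 5 of them, so r mostly measures how far Star CSC stands from the rest. In the recovered totals of the 8 deposited columns, r was lower for each of the 5 (0.57 to 0.71). On the 6 arrays of slide 1 r was higher for let-7g (0.97), let-7f (0.92) and let-7c (0.86). It was lower there for miR-103 (0.80) and miR-874 (0.64), so the order of the 5 is not settled.

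Their detection differs from that of miR-31 in Star parent, where all 5 were well above background on both arrays. In Stylo parent miR-874 stood at the common floor, as miR-31 did. MiR-103 was −2.32 and −2.40 in Star CSC, −2.73 and −2.82 in Star parent, −3.15 and −3.17 in Stylo CSC, and −3.09 in Stylo parent. It was thus well above background in Star parent too, where miR-31 was not. Its level in Star CSC was 0.80 above Stylo CSC and 0.42 above Star parent on the log2 scale, given without a test because likeness to miR-31 chose it. Let-7g, of the let-7 family that promotes differentiation, was −2.72 and −2.76 in Star CSC and −3.59 and −3.61 in Star parent (a log2 difference of 0.86).

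**Figure D4:**
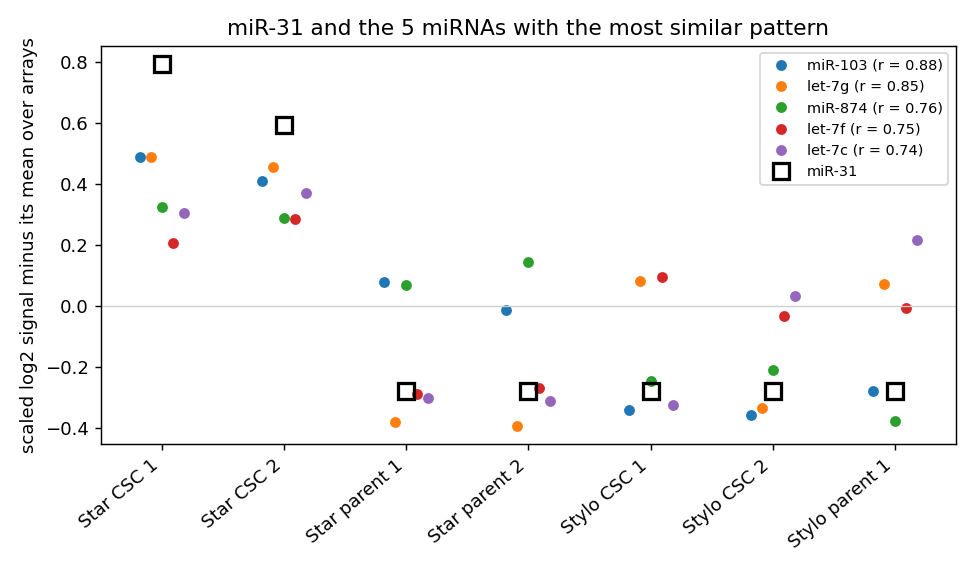
Scaled log2 signal minus its mean over the 7 distinct arrays (vertical axis) for miR-31 (black squares) and the 5 miRNAs with the highest Pearson r to it (coloured dots). All 6 are highest on the 2 Star CSC arrays, and miR-31 is at the floor on the 5 others.

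MiR-31 is one of 20 miRNAs listed as metastasis suppressors in human and mouse breast cancer models. All 20 are on the array, and miR-31 and miR-34a, a p53 target, were the 2 well above background on any array, against 54 of all 454 miRNAs (11.9%). MiR-126, miR-335, miR-206 and the miR-200 family, which act on invasion or on the epithelial state, were among the 18 that were not. MiR-34a was −0.75 and −0.84 in Star CSC, −1.26 and −1.26 in Star parent, −2.81 and −1.31 in Stylo CSC, and −1.35 in Stylo parent. Its difference between Star CSC and Star parent was 0.47 ± 0.54 and did not pass (n = 2 and 2; limma, adjusted p = 0.735). With slide as a block miR-34a did pass, as higher in Star CSC than in Star parent and in Stylo CSC. In that setting 67.4% and 56.5% of all 46 tested passed, so the pass does not set miR-34a apart. Whether it passed also changed when either Stylo CSC array was left out.

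Of the 12 miRNAs listed as metastasis promoters, 10 are on the array and 7 were well above background on at least 1 array, where 11.9% of all miRNAs were. Between Star CSC and Star parent 0 of these 7 passed by limma (n = 2 and 2), beside 2.17% of all 46 tested, which was miR-31 alone. Their median log2 difference was 0.09, against 0 over all 46. MiR-107, at the common floor on every array, and miR-155, at it on every Star array, could not pass and enter that median as 0. MiR-221 had an unadjusted p of 0.0235 (limma), and miR-103, picked above for likeness to miR-31, is given without one. MiR-21, an oncogenic miRNA, differed by 0.46 ± 0.25 (n = 2 and 2; limma, adjusted p = 0.383). MiR-221, which targets the cell cycle inhibitor CDKN1B, differed by −0.64 ± 0.18 (n = 2 and 2; limma, adjusted p = 0.12). With slide as a block miR-103 and miR-21 passed as higher in Star CSC (2 of 7), where 67.4% of all 46 tested passed, so this does not set the list apart. Leaving out either Stylo CSC array also changed which of the 7 passed. Between the sorted cells of both lines miR-103 was the 1 of 7 that passed, beside 6.52% of all tested. MiR-103 was picked for likeness to miR-31, which stands high in Star CSC. Its passes in both contrasts with Star CSC are therefore not counted as a result. MiR-155, an immune-associated miRNA, was −2.54 in Stylo parent and between −3.61 and −3.44 on the other arrays. It entered the fit only through the 1 Stylo parent array where it was high, so its lower level elsewhere is not counted as a result.

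In the RefSeq annotation of the German Shepherd assembly UU_Cfam_GSD_1.0 the miR-31 gene, MIR31, has a hairpin of 59 bases and overlaps no other gene of the table (0). Its nearest named protein-coding neighbours are IFNE, an interferon, on one side and MTAP, followed by the tumour suppressors CDKN2A and CDKN2B, on the other. The region around CDKN2A is often lost in human tumours. The nearest miRNA genes of the same chromosome are those of miR-491 and miR-8831, which were well above background on 0 of 7 arrays.

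The size of the miR-31 difference depended on how dim values were treated. With no floor on the summed probes Star CSC exceeded Star parent by 2.05 on the log2 scale and Stylo CSC by 2.35, against 0.97 with the floor, where the lower side rests on signals not well above background. With normexp on the median signal, which adds an offset of 50 to each spot, the differences turned to −0.089 and −0.30. The normexp sums were still higher in Star CSC, at 298 and 293, than on the other arrays, where they were 226 and 221 in Star parent, 205 and 221 in the sorted Stylo cells and 221 in Stylo parent. Dividing by the array percentiles, 572 and 530 in Star CSC against 278 to 400.3 on the other arrays, put Star CSC lowest. Without that division the differences were 0.40 and 0.47.

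**Figure D5:**
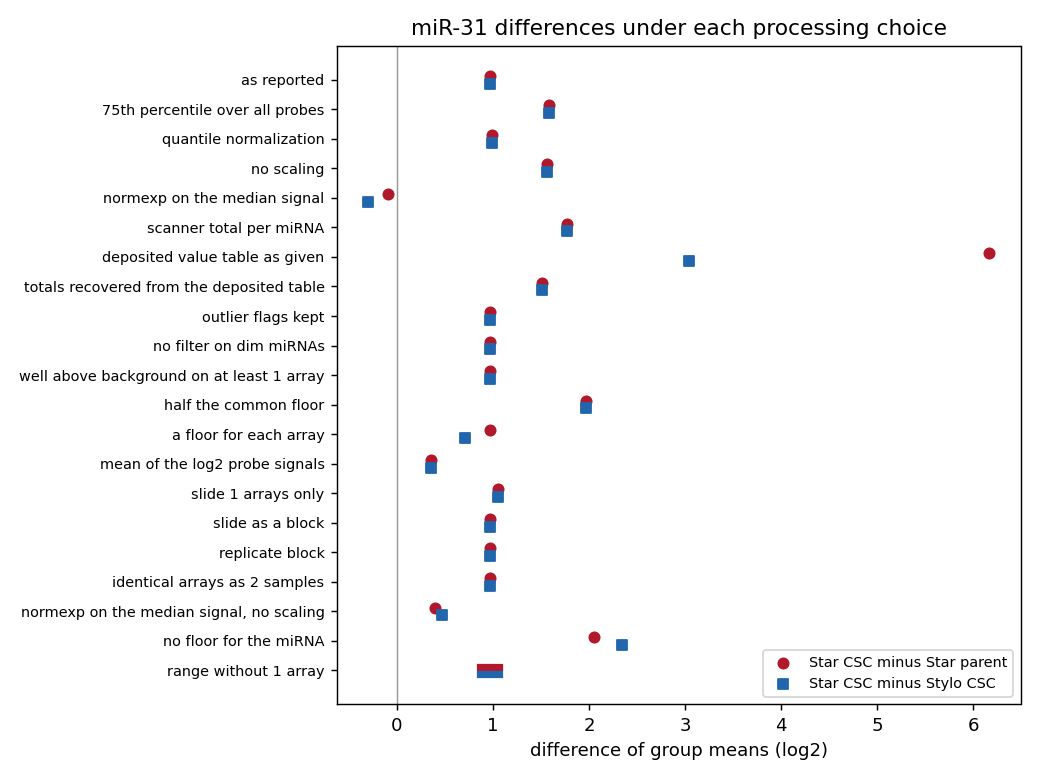
Difference of the miR-31 group means (horizontal axis, log2) between Star CSC and Star parent (circles) and between Star CSC and Stylo CSC (squares) under each processing choice, with bars for the range when 1 array is left out. As reported both are 0.97, and they fall below 0 under normexp on the scaled median signal alone.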

How the data were processed

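Total RNA was labelled with Cy3 and hybridised to 1-colour Agilent miRNA arrays. The spot intensity values are background-subtracted by Agilent Feature Extraction 11.5.1.1, per the file headers (the submitters' processing notes name the same version), and no normalization between arrays precedes them. The deposited table holds log2 totals per miRNA with a shift for each array and each miRNA centred on its median, worked out from the values since the steps are not given in the sources used here.

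Control spots and spots with an outlier flag (3.84% to 9.15% per array) were dropped, the remaining spots of each probe averaged, and its 2 to 4 probes summed for each miRNA. Each array was divided by its 75th percentile over 22 probes, a floor of 0.0822 was set and log2 was taken. The fit took the 46 miRNAs that all arrays of some group showed well above background and was made with limma 3.58.1 in R 4.3.3 (4 group means, 7 arrays, Benjamini-Hochberg threshold 0.05, two-sided), a procedure tested on simulated data. For a bound, each array of the dim group entered with its own signal or with its lowest signal well above background, whichever was higher. The member, the lists, the rule for named miRNAs (the 5 highest correlations, shared detection, list members and annotated neighbours) and the tests were chosen with earlier results of these data known. The number of arrays limits the precision.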

Additional observations from a re-analysis of the deposited data

How the results depend on the processing

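Over 27 alternatives the difference of miR-31 between Star CSC and Star parent stayed above 0 in 26, and so did that between Star CSC and Stylo CSC. The exception for both was normexp on the scaled median signal (−0.089 and −0.30 on the log2 scale). Normexp with no scaling gave 0.40 and 0.47, and the scaled signal without normexp 0.97 and 0.97. How much the offset and the division by the array percentile each contributed was not tested. In the same order, scaling over all probes gave 1.58 and 1.58, no scaling 1.56 and 1.56, the scanner totals 1.77 and 1.77, and the totals recovered from the deposited values 1.51 and 1.51. The deposited table as given yielded 6.17 and 3.05, values set by its column shifts and the placeholder for undetected totals. By construction the value follows the floor: a floor 1 log2 unit lower gave 1.97 and 1.97, no floor 2.05 and 2.35, and a floor for each array 0.71 against Stylo CSC. The mean of the log2 probe signals gave 0.36 and 0.36, since 2 of the 3 probes are dim. Leaving out 1 array gave 0.87 to 1.07 for both. The replicate block gave 0.97 and 0.97. Replicate 1 minus replicate 2 correlated between groups at −0.36, −0.05 and −0.03 over 46 miRNAs. With 1 such difference per group and none for Stylo parent, this cannot settle whether equal replicate numbers mark paired samples. The contrasts among the dim groups are 0 by the floor in 21 of 27 alternatives, which says nothing of their stability. Counts of miRNAs passing were not stable. Beside the values given with each contrast, they ran over the 22 other alternatives from 0 to 20 for Star CSC against Star parent (1 as reported) and from 0 to 23 against Stylo CSC (3 as reported). Both counts were 0 without Star CSC replicate 1 and without either Star parent replicate (limma, with 3 to 5 at an unadjusted p under 0.05). Against Stylo parent 1 passed in Star parent and in Stylo CSC, and 20 and 17 without Stylo CSC replicate 1, 32 and 32 without replicate 2, and 32 and 21 with slide as a block. Fitted with slide as a block, Stylo CSC replicate 1 has a term of its own. The no-floor and unscaled normexp values were chosen after seeing the data. Signal over background limits every group but Star CSC, and Stylo parent rests on 1 array.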
